A study of Mus musculus with 20 samples.

Results

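Accessible chromatin was examined around 10 genes of the myostatin, activin and TGF-beta pathways in C2C12, a mouse myoblast line that forms muscle fibres in culture. The genes were chosen by name (Mstn, Inhba, Tgfb1, Fst, Fstl3, Acvr2a, Acvr2b, Tgfbr1, Smad3 and Smad7), and every ATAC-seq peak within 20 kb of their GRCm38 spans was kept. ATAC-seq marks open DNA with a transposase. Peaks of all 20 lists that shared at least 1 bp were merged into regions, here called elements, of which 104 of 101352 lay around these genes. The cells were wild type (WT) or carried a knockout (KO) of Setd2, which encodes the enzyme that trimethylates lysine 36 of histone H3. Libraries were taken at day 0 (D0), and at day 1 (D1) and day 5 (D5) either in control medium (CTL) or with methionine restricted (MR). This gave 10 groups of 2 libraries: WT replicates 1 and 2, and KO line 1 and line 2, which recurred in every condition. The labels do not say whether the WT replicates were separate cultures. The tests shuffled libraries as if they were independent, although the KO lines recurred. The p-values therefore describe only these libraries and do not measure the spread between lines or cultures.

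Myostatin, made from Mstn, and activin A, made from Inhba, bind the type II receptors encoded by Acvr2a and Acvr2b, while TGF-beta 1, made from Tgfb1, signals through a receptor complex that contains the product of Tgfbr1. Signalling through these receptors leads to phosphorylation of Smad2 and Smad3, which enter the nucleus with Smad4 and act beside other DNA-binding factors. Follistatin (Fst) and the follistatin-like protein Fstl3 trap myostatin and activins outside the cell, and Smad7 inhibits the receptors from within. In skeletal muscle, myostatin limits growth, and both myostatin and TGF-beta hold back myoblast differentiation.

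The lists held 20847 to 69881 peaks in 18 libraries. The lists of KO line 1 at D5 held 644 peaks in CTL and 1881 in MR and had 0 of the 104 elements. These 2 lists enter the KO means, call counts and tests as 0, and every KO call at D5 comes from line 2. Between 28 and 83 of the elements were called in each of the 18 other libraries. Of the muscle marker genes, Des, Cdh15 and Chrna1 were marked by a peak no further than 1 kb from an end of the gene in all 18, Myod1 and Itga7 in 17, Msc in 4 and Vcam1 in 0. Of 10 markers of other cell types, 7 had no such peak in any library, and Cd79a and Krt8 had one in 9 and Col2a1 in 2.

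The promoters fell into 3 patterns. A promoter window here is the 250 bases before a RefSeq start site and the 50 after it, and 8 of the 10 genes had one in the RefSeq table (GRCm38.p6). The window of Mstn had a call in no library, which held for 46.9% of 17274 genes. The windows of Inhba, Tgfbr1 and Smad3 were called in all 18 libraries other than KO line 1 at D5, as were 26.3% of genes. The others were called in part of the libraries: Tgfb1 in 7 WT and 6 KO, Acvr2a in 9 and 4, Acvr2b in 9 and 3, and Fstl3 in 7 and 3. The 250 bases before the start site are shown for a promoter with no call, for both that were called in 3 KO libraries, and for a promoter called in all 18. Capitals mark matches, on either strand, to the SMAD-type letters CAGAC, the E-box CANNTG, the AP-1 letters TGANTCA, the TEAD letters GGAATG or the palindrome GTCTAGAC.
Mstn, chr1:53061390-53061639, plus strand: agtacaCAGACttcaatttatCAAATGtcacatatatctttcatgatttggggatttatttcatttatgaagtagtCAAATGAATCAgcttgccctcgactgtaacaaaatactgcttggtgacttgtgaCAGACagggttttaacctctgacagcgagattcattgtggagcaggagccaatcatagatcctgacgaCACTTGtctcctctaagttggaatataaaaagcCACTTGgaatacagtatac
Acvr2b, chr9:119401928-119402177, plus strand: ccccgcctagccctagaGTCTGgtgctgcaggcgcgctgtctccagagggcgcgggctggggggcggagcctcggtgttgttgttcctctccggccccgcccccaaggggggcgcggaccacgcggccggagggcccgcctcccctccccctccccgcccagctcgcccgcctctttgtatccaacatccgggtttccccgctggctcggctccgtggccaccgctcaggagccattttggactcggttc
Fstl3, chr10:79777024-79777273, plus strand: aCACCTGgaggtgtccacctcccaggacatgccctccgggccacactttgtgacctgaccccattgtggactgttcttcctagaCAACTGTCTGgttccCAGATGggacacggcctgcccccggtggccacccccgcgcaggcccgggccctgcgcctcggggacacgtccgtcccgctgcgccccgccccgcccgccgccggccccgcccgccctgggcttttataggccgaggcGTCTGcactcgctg
Smad3, chr9:63757995-63758244, minus strand: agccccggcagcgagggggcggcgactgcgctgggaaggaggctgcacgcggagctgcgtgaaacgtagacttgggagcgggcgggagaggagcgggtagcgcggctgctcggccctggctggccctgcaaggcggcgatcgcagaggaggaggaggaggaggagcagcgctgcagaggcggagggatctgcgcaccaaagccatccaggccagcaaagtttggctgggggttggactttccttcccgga

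The Mstn promoter was low in GC. Its GC content was 38.4% and that of Inhba 43.2%, against 72.8% for Acvr2b, 71.2% for Fstl3, 69.2% for Smad3 and a median of 55.6% over 21045 promoter windows. It held 4 E-box matches, which begin 229, 174, 52 and 19 bases before the start site, and 1 AP-1 match, at 170 bases, which overlaps the E-box at 174. CAGAC or its reverse complement was found in Mstn at 244 and 120 bases, in Acvr2b at 233 bases, and in Fstl3 at 161 and 14 bases, the match at 161 overlapping an E-box at 166. Smad3 held none of the 5 motifs. Over all windows of that length, 62.8% held the E-box, 40.7% CAGAC, 11.6% GGAATG, 6.17% TGANTCA and 0.185% GTCTAGAC. A match describes these letters and does not show a bound site.

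**Figure D1:**
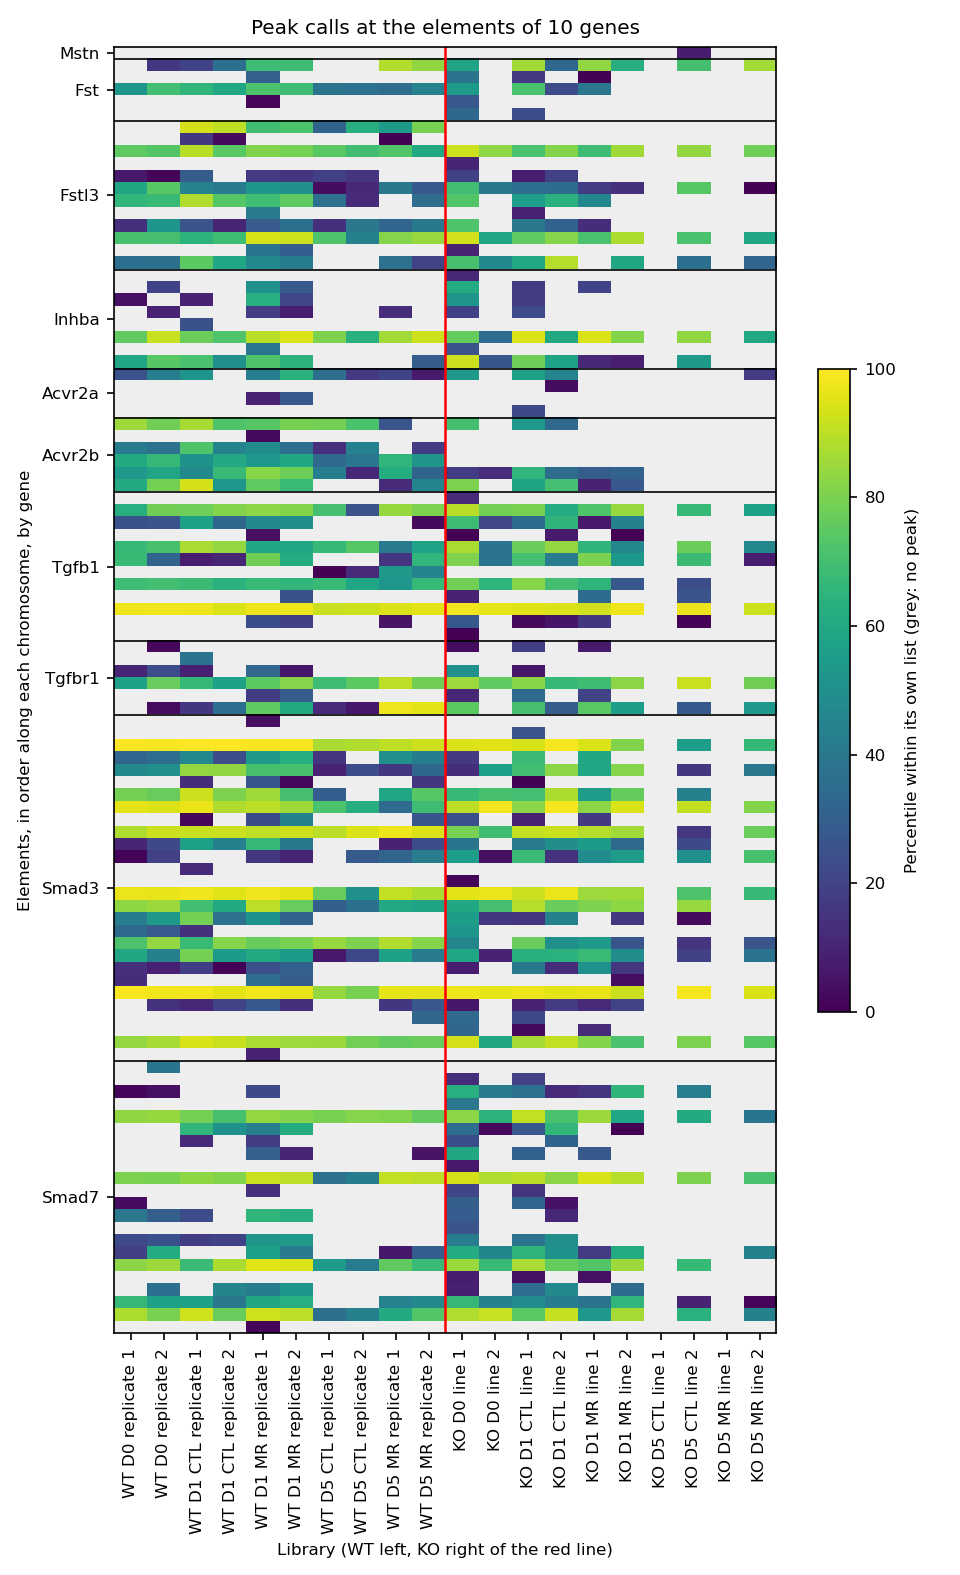
Calls of the 104 elements (rows, in order along each chromosome and grouped by gene) in the 20 libraries (columns, WT left and KO right of the red line). Colour gives the percentile of the element's strongest peak within its own list, where 100 is the strongest, and grey marks no peak; the KO line 1 columns at D5 are grey throughout.

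Elements were unevenly spread over the 10 genes. Smad3 had 28, 27 of them overlapping the gene, and Smad7 had 22, 15 of them overlapping it. Fstl3 and Tgfb1 had 12 each, but 10 of those around Fstl3 and 8 of those around Tgfb1 lay in or within 1 kb of the end of another gene. Inhba had 8, Acvr2b and Tgfbr1 6 each, Fst 5, Acvr2a 4 and Mstn 1. Of the 104, 19 were called in all 18 libraries, where the background over all regions was 11%. Another 20 were called in 1 library, where the background was 20.4%. Smad3 held 8 of the 19, Fstl3, Tgfb1 and Smad7 held 3 each, and Inhba and Tgfbr1 held 1 each.

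Among the ligand genes, Mstn was almost without calls. Its only element, chr1:53080041-53080123, lay 18442 bp past the start site and was called in 1 library, KO D5 CTL line 2, at percentile 7.94 of that list. No other library had a peak within 20 kb of Mstn, in undifferentiated cells or at D5. The Inhba start-site element, chr13:16011868-16012539, was called in all 18 libraries. Its percentile ran from 63.6 to 94.2 in the 10 WT lists and from 34.9 to 94.5 in 8 KO lists. The strongest element within 20 kb of Tgfb1, chr7:25711752-25712249, lies in Ccdc97 and ranked between percentiles 91.9 and 98.0 in all 18 libraries. Lists differ in length, so these percentiles describe each list and are not compared between lists.

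The element at the Tgfb1 start site, chr7:25686776-25687511, was called at D0 and D1 and in 1 library at D5. It was called in 4 of 4 libraries at D0 and 8 of 8 at D1, and in 1 of 8 at D5, WT MR replicate 2, where it stood at percentile 2.63. Both WT D5 CTL libraries lacked it. Its call difference by day was −0.875 (exact permutation p = 0.00463, adjusted 0.0379). It was 0 when a peak had to cover 50% of the region (exact permutation p = 1) and −0.25 among the 20000 strongest peaks of each list (p = 0.5 by the same test). Of promoter windows called in all 6 WT libraries of D0 and D1, 14.4% lacked a call in both WT D5 CTL libraries, and Tgfb1 was 1 such window among 5 members. A neighbouring element went the other way. The element chr7:25707698-25708011, 2621 bp beyond the Tgfb1 span, was called in all 4 WT D5 libraries and in no other. Its percentiles were 0.196 and 11.9 in CTL and 53.6 and 44.9 in MR, so the CTL calls were near the bottom of their lists. It did not pass the test of day (exact permutation p = 0.0556), in which the KO libraries, without a call on either day, are included.

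**Figure D2:**
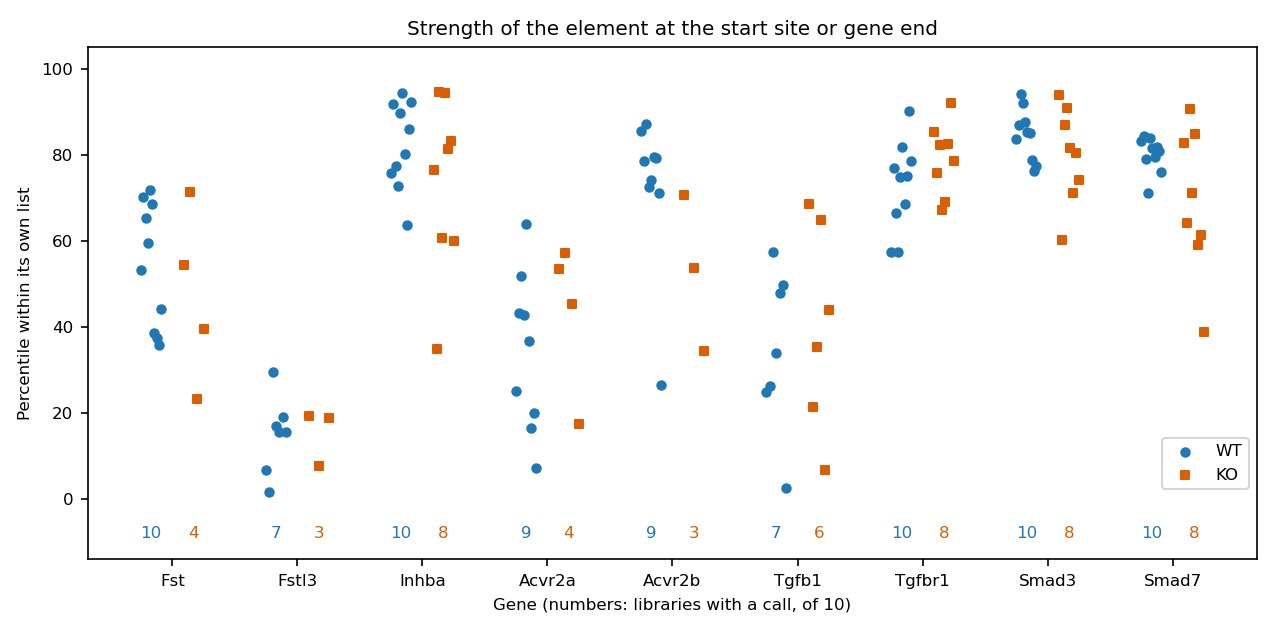
Within-list percentile of the element at the start site, or for Fst and Smad7 at a gene end, in each library with a call (circles WT, squares KO; numbers give libraries with a call, of 10). Inhba, Tgfbr1, Smad3 and Smad7 have 10 WT and 8 KO calls, while Acvr2b and Fstl3 have 3 KO calls; lists differ in length, so heights are not compared between libraries.

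The receptor gene Acvr2b had fewer elements called in the Setd2 KO libraries. Each WT library had 4 to 6 of its 6 elements: 5 and 5 at D0, 5 and 5 at D1 CTL, 6 and 5 at D1 MR, and 4 in each D5 library. KO lines 1 and 2 had 3 and 1 at D0, 3 and 3 at D1 CTL, 2 and 2 at D1 MR, and 0 in every D5 library. The groups did not overlap in any condition. At D5 the KO line 1 lists held no element of any of the 10 genes, so only line 2 informs the comparison there. How many other genes separated in this way was not counted. The mean was 4.7 in WT and 1.4 in KO, a difference of −3.3 elements (exact stratified permutation p = 0.000257, which no result of this design can undercut, adjusted p = 0.0185 over 14267 genes). Of those genes, 17.9% were lower and 0.89% higher in KO at the same threshold, so a lower count was common. Without the D5 libraries the difference was −2.83 (exact permutation p = 0.00926, adjusted 0.119), where 0 of the 10 genes passed. The adjusted p was 0.187 without WT replicate 1, 0.145 without WT replicate 2 and 0.0983 without KO line 2. The 10 KO libraries came from 2 lines and are not independent of each other. With the replicate number as a block the adjusted p was 0.065 for Acvr2b and 0.077 for Fstl3 by the exact permutation test, and 0 genes passed; WT and KO share only the number, so this block is no pairing.

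The Acvr2b elements past the threshold for genotype lay inside the gene. The element chr9:119425264-119425673, 23290 bp past the start site, was called in 10 of 10 WT libraries and 0 of 10 KO libraries. In WT it stood at percentiles 60.8 and 66.4 at D0, 51.4, 60.2, 53.3 and 59.7 at D1, and 34.5, 39.1, 65.9 and 52.0 at D5. The authors' fold enrichment of this peak was 3.40 to 5.60 in those WT lists, so it was a mid-ranking and not a marginal peak. Neither KO library at D0 had a call there. The list of line 1 held 63530 peaks, more than either WT list at D0, and that of line 2 held 30629, fewer than either. The part of list length in the missing KO calls was not tested. The element chr9:119409445-119409599, 7344 bp past the start site, was called in 9 WT libraries, all but D5 MR replicate 1, and in 0 KO libraries. Its WT percentiles ran from 36.6 to 72.5 at D0 and D1. At D5 they were 13.7 and 43.9 in CTL and 17.2 in MR replicate 2, so some of these calls were weak. Both Acvr2b elements passed the threshold for genotype (exact permutation p = 0.000257 and 0.000772, adjusted 0.0353 each).

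The remaining Acvr2b elements were shared with the KO in part. The start-site element, chr9:119401864-119402007, was called in 9 WT libraries, and in KO D0 line 1 and both KO D1 CTL libraries (exact permutation p = 0.0139, adjusted 0.0507). Its percentiles were 70.5, 53.7 and 34.5 in those KO lists. The element chr9:119430436-119430603, 28341 bp past the start site, was called in all 10 WT libraries and all 6 KO libraries of D0 and D1. It was tested by rank over the 19629 regions that all 12 D0 and D1 libraries share, so that each list has the same regions. There the mean percentiles of WT and KO were 22.5 and 3.40 at D0, 27.8 and 14.9 at D1 CTL, and 45.5 and 8.86 at D1 MR. The mean difference was −22.8 (exact permutation p = 0.0185, adjusted 0.105), which did not pass. Over chromosome 9 the median rank difference was −0.39.

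**Figure D3:**
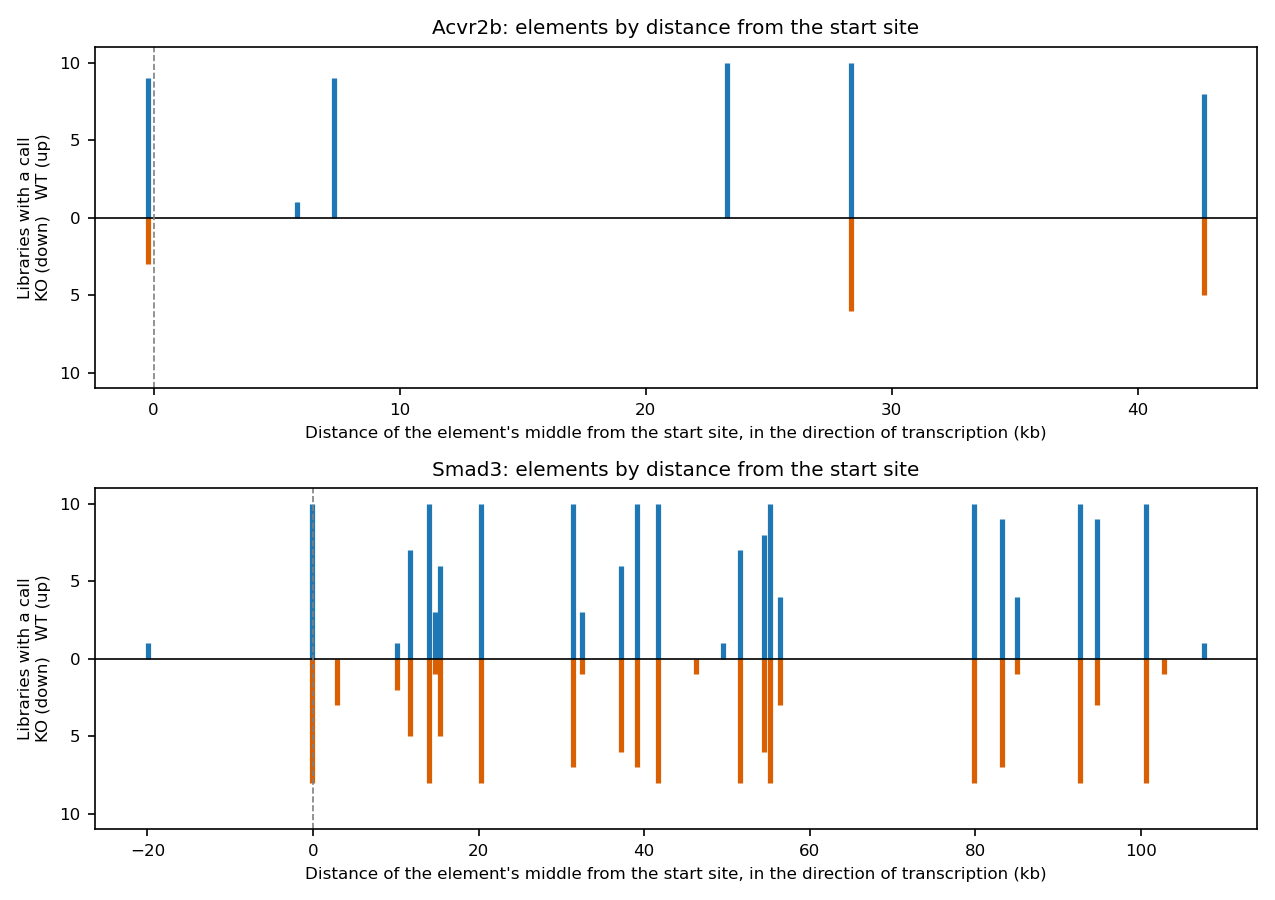
Number of libraries with a call at each element of Acvr2b (top) and Smad3 (bottom), WT upward and KO downward, of 10 each, by distance of the element's middle from the start site in kb along the direction of transcription. At Acvr2b the bars 7344 and 23290 bp past the start site have no KO counterpart, and most tall bars at Smad3 are present in both genotypes.

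Acvr2a, which encodes the other activin type II receptor, had few elements. Its start-site element, chr2:48813683-48814370, was called in 9 WT and 4 KO libraries (exact permutation p = 0.0833, adjusted 0.157). The KO calls were D0 line 1, both D1 CTL libraries and D5 MR line 2. Both KO D1 MR libraries lacked it, as they lacked the start-site elements of Acvr2b and Fstl3. KO D0 line 2 lacked the same 3, and in that library 34.5% of all promoter windows were called, against 44.3% to 49.8% in the other D0 libraries. The part of list length in these missing calls was not tested.

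The Tgfbr1 start site, chr4:47352886-47353613, was called in all 18 libraries, at percentiles 57.3 to 90.1 in WT and 67.1 to 91.9 in KO. Inside Tgfbr1, the element chr4:47407237-47407520, 21162 bp past the start site, differed in rank between media. Within its own list it stood at percentiles 12.5 and 6.13 in WT D5 CTL, and at 97.5 and 96.1 in WT D5 MR, where its fold enrichment was 10.7 and 8.83 against 3.01 and 2.80 in CTL. Among 14148 regions called in all 12 libraries of WT D1, KO D1 and WT D5, the mean percentile rose from 3.11 to 15.7, from 11.5 to 32.1 and from 3.83 to 91.2 in that order. CTL and MR libraries did not overlap in any of these 3 strata, and in KO D1 line 1 went from 18.7 to 36.4 and line 2 from 4.34 to 27.9. How many of the 14148 regions separated in this way was not counted. The mean difference was 40.2 (exact permutation p = 0.00926, the smallest possible, adjusted 0.115), so it failed the adjusted threshold. The same p was reached by elements in Smad7, higher in MR, and in or near Tgfb1 and at the Smad3 start site, lower in MR. Over all ranked regions, 12.3% were higher and 10.8% lower in MR at an unadjusted p under 0.05 by this test.

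Of the inhibitor genes, Fstl3 had fewer elements in KO. WT libraries had 7 to 10 elements around Fstl3. KO libraries had 9 and 4 at D0, 8 and 7 at D1 CTL, 5 and 4 at D1 MR, and 4 at D5 in line 2. The groups overlapped at D0 and touched at D1 CTL. The mean was 7.8 in WT and 4.5 in KO (difference −3.3, exact permutation p = 0.0036, adjusted 0.0339). Without the KO line 1 libraries at D5 the difference was −2.5 (exact permutation p = 0.0072, adjusted 0.0597), and within 5 kb of the gene it was −1.1 (exact permutation p = 0.0432, adjusted 0.127). At an unadjusted p under 0.05 these were the only 2 of 9 genes, Acvr2b and Fstl3, that differed, both lower, against 35.2% of genes lower and 2.14% higher.

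The element that passed on its own lay in a neighbour. The element chr10:79760701-79760930, inside Rnf126 and 16344 bp from Fstl3, was called in all 8 WT libraries of D1 and D5, in neither WT D0 library, and in no KO library (exact permutation p = 0.00154, adjusted 0.0353). Its percentiles in WT were 93.4 and 90.4 at D1 CTL, 69.3 and 71.5 at D1 MR, 32.3 and 63.2 at D5 CTL, and 54.4 and 79.6 at D5 MR. The nearest start site was that of Fgf22, 5706 bp away, so the peak cannot be assigned to Fstl3. The median rank of chromosome 10 was lower in KO by −5.50 percentile points, −4.29 in line 1 and −6.24 in line 2, and its part in this result was not tested. The element 933 bp past the Fstl3 start site, chr10:79778041-79778373, was called in all 18 libraries. Its rank difference of −8.36 (exact permutation p = 0.00926, adjusted 0.0729) became 0.992 after the median of the chromosome was taken out.

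Fst had its most frequent WT call at chr13:114458394-114458700, 289 bp inside a gene end. This element was called in 10 of 10 WT libraries, and in KO D0 line 1, both KO D1 CTL libraries and KO D1 MR line 1 (exact permutation p = 0.0139, adjusted 0.0507). A second Fst element, chr13:114447066-114447539, 4723 bp outside the gene, had no call in either WT D5 CTL library and a call in both WT D5 MR libraries, at percentiles 88.4 and 83.2. KO D5 line 2 had it in both media, at 70.6 in CTL and 86.3 in MR.

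The signal transducer gene Smad3 had the most elements of the 10. WT libraries had 18 and 18 of the 28 elements at D0, 20 and 16 at D1 CTL, 22 and 20 at D1 MR, 12 and 11 at D5 CTL, and 15 and 18 at D5 MR. KO lines 1 and 2 had 22 and 12, 22 and 16, and 18 and 17 at D0, D1 CTL and D1 MR, and line 2 had 14 and 10 at D5. The ranges overlapped at D0 and D1 CTL. KO libraries were below both WT libraries at D1 MR, and at D5 line 2 was above both in CTL and below both in MR. The difference of −3.9 did not pass (exact permutation p = 0.102, adjusted 0.218). The start-site element, chr9:63757818-63758529, stood at percentiles 76.1 to 94.1 in WT and 60.0 to 93.7 in KO.

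The highest-ranking Smad3 element in the 6 WT libraries of D0 and D1 lay far inside the gene. This element, chr9:63657153-63657597, 100619 bp past the start site, stood at percentiles 98.8 to 99.7 in the 6 WT libraries of D0 and D1, and at 81.2 to 98.5 in the 6 KO libraries. In WT D5 it stood at 87.2 to 92.5, and in KO D5 line 2 at 56.0 and 66.8. In each WT D5 library the element 55211 bp past the start site ranked above it, at 89.6 and 94.4 in CTL and at 97.4 and 94.6 in MR. In WT D5 MR and both KO line 2 D5 lists, the element 13988 bp past the start site also stood above that at 100619 bp. Its percentiles there were 96.4 and 96.5 in WT and 98.6 and 93.8 in KO. Among common regions the rank of the element 100619 bp past the start site was lower in KO by −13.1 percentile points (exact permutation p = 0.00926, adjusted 0.0729). Among the 28 member elements ranked by genotype, 3 were lower and 1 higher at an unadjusted p under 0.05, against 12.7% lower and 13.5% higher over all regions, and 0 passed the adjusted threshold. At least 3635 regions would have to share the smallest p of 0.00926 before any could pass.

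The inhibitory gene Smad7 had a mean of 8.5 elements over the 10 WT libraries and 8.5 over the 10 KO libraries, the 2 short D5 lists of line 1 included at 0. Over the 8 KO lists of usual length the mean was 10.6, and over D0 and D1 alone it was 10.7 in WT and 12.3 in KO. Its start-region element, chr18:75366436-75367702, was the longest but 1 of the 104 at 1267 bp and was called in all 18 libraries, at percentiles 71.0 to 84.4 in WT and 38.9 to 90.7 in KO. The element chr18:75375606-75375894, 8241 bp inside the gene, stood at 37.5 and 42.4 in WT D5 CTL and at 90.7 and 90.1 in WT D5 MR. Among common regions its rank was higher in MR by 27.5 points (exact permutation p = 0.00926, adjusted 0.115), higher in each of the 3 strata.

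Across all 104 elements, the calls of 18 were varied enough for the genotype test to reach 0.05. The threshold was passed by 3, the 2 in Acvr2b and the 1 in Rnf126, and all were called less often in KO. Over the 18700 regions tested, 16.1% passed with fewer calls in KO and 2.73% with more, so the members' share was close to the background. At an unadjusted p under 0.05, 8 of 18 were lower (41.8% of all regions) and 0 higher (8.99%). The 3 also passed without KO line 1 at D5. None passed when WT replicate 1 was left out (smallest adjusted p 0.147), WT replicate 2 (0.133) or KO line 2 (0.0596), where the smallest possible exact permutation p rises to 0.00412. None passed when a peak had to cover 50% of the region, with adjusted p-values of 0.0699 to 0.0761. Among the 20000 strongest peaks of each list, the Acvr2b element 7344 bp past the start site had a call difference of −0.3 and no longer passed, and without the D5 libraries the Rnf126 element had an exact permutation p of 0.0556.

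**Figure D4:**
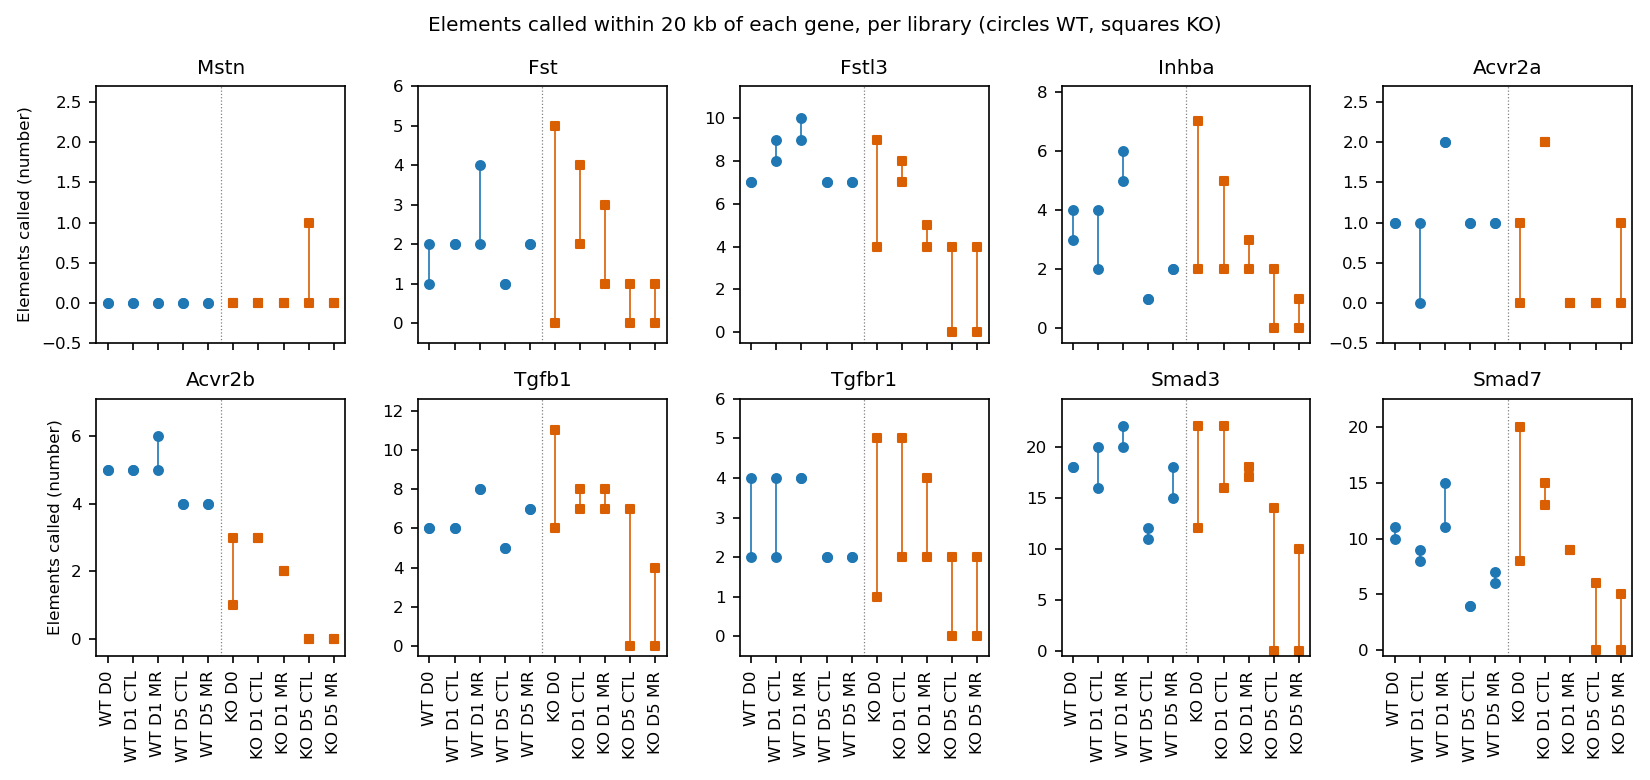
Number of elements called within 20 kb of each gene, per library, by group (circles WT, squares KO, lines join the 2 libraries of a group). WT libraries have 4 to 6 elements at Acvr2b and KO libraries 0 to 3.

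Methionine restriction changed no call past the adjusted threshold. For medium, 6 elements could be tested and 0 passed, as did 0 of 3909 regions over the genome by the exact stratified permutation test (0% in each direction). At an unadjusted p under 0.05, 1 of the 6 had more calls in MR, against 5.45% of regions, and 0 had fewer, against 0.435%. That element, chr18:75386188-75386474 in Smad7, was called in 2 of 2 MR libraries and 0 of 2 CTL libraries in WT at D1 and again at D5. Both WT D0 libraries had it too. In KO it was called in both media at D1, and at D5 in MR line 2 alone (exact permutation p = 0.0278, adjusted 0.535). The design is coarse: at least 121 regions would have to share the smallest p of 0.00154 before any could pass, so 0 calls does not show that no element changed. For counts of elements per gene, 0 of 8 genes passed, as did 0 of 11868 over the genome. At an unadjusted p under 0.05, 0 of the 8 differed, against 0.0421% of genes lower and 0.741% higher in MR. By rank among common regions, 25 member elements were compared, and 3 were lower and 3 higher in MR at an unadjusted p under 0.05, against 10.8% and 12.3% of regions, with 0 past the adjusted threshold. The lower ones were the Smad3 start-site element, by −24.4 points, 1 inside Tgfb1, by −38.9, and 1 beyond the Tgfb1 span, by −19.6. The higher ones were those of Tgfbr1 and Smad7 described above and 1 that overlaps both Prss57 and Palm near Fstl3, by 24.4.

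In WT at D5 the media were compared in lists of unequal length. WT D5 CTL lists held 22465 and 20847 peaks, and MR lists 39538 and 39263. Of 55 elements called in any of these 4 libraries, 8 were in both MR and neither CTL library, 1 or more at each of Fst, Fstl3, Acvr2b, Tgfb1, Smad3 and Smad7, and 1 was in both CTL and neither MR library. Over all regions the shares were 27.9% and 0.494%. Among the 20000 strongest peaks of each list, 1 of 40 elements was in MR alone, the Fst element at chr13:114447066-114447539, and 7 were in CTL alone, against 8.22% and 7.08%. Member elements held a larger share of the short CTL lists. They were 17.4 and 18.1 of every 10000 regions called in the WT D5 CTL libraries, against 10.7 to 13.5 in the other 16 libraries of usual length. Of 42 elements called in all 6 WT libraries of D0 and D1, 30 (71.4%) were still called in both WT D5 CTL libraries, against 50.3% of all such regions, and 10 were in neither, against 37.3%. The regions compared include those far from genes. Of promoter windows over all genes that were called in those 6 libraries, 14.4% were in neither. The part of promoters in the members' share was not tested. In both WT D5 MR libraries 34 of the 42 were called, against 80.6%, and in neither 3, against 11.5%. Both MR and neither CTL library had 5 of them, against 20.3%. These shares describe 4 libraries and were not tested.

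At D1, 10 of 83 WT elements were called in both MR and neither CTL library and 1 the other way round, against 10.2% and 1.75% of regions. In KO at D1 the counts were 0 and 5 of 77, against 0.369% and 4%.

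Calls split between genotypes were counted at D0 and D1, since KO line 1 at D5 had no element. In D1 MR, 14 of 81 elements were called in both WT and neither KO library and 0 the other way round, where the background was 17.7% and 1.61%. In D1 CTL the counts were 4 and 5 of 83, where it was 6.45% and 5.41%, and at D0 they were 2 and 1 of 87, where it was 5.36% and 2.51%. D1 MR lists held 69881 and 57676 peaks in WT and 48460 and 35201 in KO, and the part of list length was not tested. The difference between genotypes in the effect of MR was tested on the number of elements per gene, and 0 of 9 genes passed, as did 0 of 12675 over the genome. At an unadjusted p under 0.05 it was lower in 1 of the 9, Smad7, against 4.5% of genes. At Smad7 the mean went from 8.5 to 13 elements in WT at D1 and from 14 to 9 in KO, and from 4 to 6.5 and from 3 to 2.5 at D5 (interaction −6.25, exact permutation p = 0.0401, adjusted 0.682).

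From D1 to D5 most tested elements lost calls. Of 12 elements testable for day, 10 passed, all with fewer calls at D5, where the background was 66.2% fewer and 0.00619% more. The same 10 had an unadjusted p under 0.05, against 80.1% of regions. They were 4 in Smad3, 3 in Smad7, and 1 each at Inhba, Tgfb1 and Acvr2b, the last at the start of the neighbouring gene Exog. The Smad3 element chr9:63742391-63742817, 15390 bp past the start site, was called in 8 of 8 libraries at D1 and 0 of 8 at D5 (exact permutation p = 0.00154, adjusted 0.0379). It was a weak peak, at percentiles 0.924 to 50.4 at D1. Its neighbour chr9:63743784-63744228, 13988 bp past the start site, stayed called in all 6 D5 libraries of usual length, at percentiles 79.4 to 98.6.

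Counts per gene fell at D5 for 8 of 9 testable genes, all but Acvr2a, with adjusted p-values of 0.00622 to 0.0244 from the exact permutation test. The background was 89.4% of 13391 genes, so a fall was the rule. The mean over the 8 libraries of a day fell from 18.9 to 10.0 elements at Smad3, from 11.1 to 4.0 at Smad7 and from 3.63 to 1.13 at Inhba. The D5 means include the 2 short lists of KO line 1. Over the 6 D5 lists of usual length they were 13.3 at Smad3, 5.33 at Smad7 and 1.5 at Inhba. In WT CTL, 14 of 63 elements were called in both D1 and neither D5 library and 1 the other way round, against 32.9% and 0.409% of regions. In WT MR the counts were 14 and 1 of 81, against 21.9% and 1.69%. List length moved with day: the 6 D5 lists of usual length held 20847 to 39538 peaks and the 8 D1 lists 35201 to 69881. Among the 20000 strongest peaks of each list 0 elements and 0 genes passed, and without KO line 1 at D5 0 elements and 6 genes passed. Without WT replicate 1, or without WT replicate 2, 0 elements passed, and 6 passed without KO line 1 and 6 without KO line 2. D0 and D1 CTL were not tested, since the number of libraries is too small for the threshold. In WT, 3 of 70 elements were gained and 3 lost in both libraries, against 7.44% and 2.63% of regions, and in KO 0 of 88 were gained or lost, against 1.91% and 0.353%.

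A list of 41 further genes of these pathways (other ligands, carriers, receptors, transducers, regulators and targets) was counted in the same way. For genotype, 38 could be tested, and 4 had fewer elements in KO and 1 more, against 17.9% and 0.89% of all genes. The lower genes were Inha, an inhibin subunit (mean 3.7 in WT and 1.1 in KO, adjusted p = 0.0185), Tgfb3, a TGF-beta ligand (5.4 and 3.2, adjusted p = 0.032), Smad4, the common partner of the receptor-activated Smads (3.3 and 1.5, adjusted p = 0.029), and Ccn2, a TGF-beta target gene (5.2 and 2.7, adjusted p = 0.0185), all by the exact permutation test. Tgfbr3, which encodes the co-receptor betaglycan, went up from a mean of 3.8 to 8.3 (exact permutation p = 0.00231, adjusted 0.0269). Its KO counts were 11 and 7 at D0 against 4 and 5 in WT, and 12 and 14 against 5 and 5 at D1 CTL. These KO means include the 2 short lists of line 1 at D5. Over the 8 KO lists of usual length they were 1.38 for Inha, 4.0 for Tgfb3, 1.88 for Smad4, 3.38 for Ccn2 and 10.1 for Tgfbr3. Without the short lists Inha, Ccn2 and Tgfbr3 passed (adjusted p = 0.0272 each by the exact permutation test), and Tgfb3 (0.0597) and Smad4 (0.0751) did not. Without all D5 libraries, with the replicate block, without either WT replicate, or without KO line 2, these 5 genes had adjusted p-values of 0.065 to 0.272 by the same test and did not pass. For day, 29 of 38 were lower and 0 higher, against 89.4% of all genes lower, and for medium and for the interaction 0 passed. Bmp2 had no element in any library.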

How the data were processed

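The deposited files were 1 broadPeak list per library, in which the authors give each peak a score, a fold enrichment (a ratio) and the −log10 of its p-value and of its q-value. The deposited −log10 q-values began at 1.00. The genome build is GRCm38, per the submitters' processing notes; the aligner and peak caller are not given in the sources used here, and read depth is unknown. Percentiles rank −log10 q within a list.

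Peaks sharing at least 1 bp were merged into 101352 regions with Python 3.11.15, NumPy 2.4.6 and pandas 2.3.3. Two-sided exact permutation tests shuffled labels within strata: genotype within 5 conditions (7776 arrangements), medium and day within 4 (1296). Benjamini-Hochberg adjustment covered all regions, or all of 21631 protein-coding genes, whose calls allow p of 0.05 or lower, at a threshold of 0.05. The tests were checked on simulated data. There a small set of changed regions was recovered for genotype, but none of it for medium or day after adjustment. A large set was recovered in each comparison. The simulated regions changed from a call in every reference library to none in the compared libraries, and smaller changes were not simulated. Simulated libraries were drawn independently, while the KO lines here recur across conditions. The tests are coarse, and a count of 0 does not show that nothing changed.

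Named elements were, per gene, the most often called, those past a threshold, and those with the largest call difference in each comparison; others were named for their values after these were seen. The members and lists were chosen with earlier results of these data known. KO libraries of a line pair by their labels: correlations of the line difference between conditions were 0.373, 0.376 and 0.543, against 0.132, −0.0344 and 0.0266 for the WT numbers. Alternatives covered q threshold, list length, overlap, window, pairing and left-out libraries. Exon positions were not used here.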

Additional observations from a re-analysis of the deposited data

How the results depend on the processing

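The number of member elements past the threshold for genotype, 3 as reported, was 6 among peaks with a −log10 q of at least 2, 0 when a peak had to cover 50% of the region, 7 with a replicate block and 0 to 6 with 1 replicate or line left out. The number of genes with different counts by genotype, 2 as reported, was 0 with the replicate block, 0 without the D5 libraries and 0 to 2 with 1 replicate or line left out. It was 1 in 4 settings: the 20000 strongest peaks, without KO line 1 at D5, within 5 kb, and within the gene span. WT numbers share only a number with the KO lines, so this block is no true pairing. The elements past the threshold for day, 10 as reported, were 0 among the 20000 strongest peaks, 0 without KO line 1 at D5 (added after the data were seen) and 0 to 6 with 1 replicate or line left out. The genes, 8 as reported, were 0 among the 20000 strongest peaks. With the block the day counts were 9 elements and 7 genes. With the KO lines alone as the block, the true pairing, they were 10 and 8, and medium gave 0 of each, so no other call changed. The settings tried on the further pathway genes were also added after the data were seen.

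Some values below the threshold turned their sign. For genotype these were the Tgfb1 element at chr7:25689028-25689519 (0.1 among the 20000 strongest peaks), the Fst count (0.5 without KO line 2, −0.9 without line 1, 0.333 without D5), the Tgfb1 count (0.5 without KO line 1 at D5, 1.17 without D5) and the rank of the Fstl3 element at chr10:79778041-79778373 (0.992 after chromosome centring). Among the 20000 strongest peaks, the medium difference became −0.125 for the Smad3 element at chr9:63706240-63706690, −0.375 for the Inhba and Tgfb1 counts and −0.5 for the Smad3 count, and the day difference became 0.25 for the same Fstl3 element and 0.375 for the Acvr2a count. The Tgfbr1 count by medium was −0.125 without WT replicate 2 and 0.375 without replicate 1. The cause was not tested. Tests of medium and day in WT alone, and of rank by medium without a WT replicate, cannot reach the threshold and gave no value. Calls depend on depth, which the lists do not give: a missing call is not closed chromatin.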
